A study of Mus musculus with 6 samples.

Results

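The protein genes of the mitochondrial ribosome were examined in left ventricle of 3 sickle and 3 control mice, 1 Affymetrix Mouse Gene 2.0 ST array per mouse. The members were all genes whose array annotation gave exactly 1 symbol starting with Mrpl or Mrps and a digit, with the brightest row kept for each gene. This gave 70 of 21506 genes on the array table, 42 with large subunit symbols (Mrpl) and 28 with small subunit symbols (Mrps). A further 6 member symbols stood only on rows that name several genes and were not used here, among them Mrpl44.

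All mice were male and studied at 10 to 14 weeks of age, on a mixed B6;129 background. Both groups carried engineered human alpha-globin in place of the mouse genes (Hbatm1(HBA)Tow). Sickle mice were homozygous for the beta-globin locus allele Hbbtm2(HBG1,HBB*)Tow, which carries the sickle form of human HBB with HBG1. Control mice were homozygous for the non-sickling allele Hbbtm3(HBG1,HBB)Tow. The labels present them as separate stocks, and give no litter, cage or scan batch, so such differences cannot be told apart from genotype. They list the arrays of a group as separate samples, and p-values measure the spread between these.

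The mitochondrial ribosome makes the few proteins encoded by mitochondrial DNA, all of them core subunits of the respiratory chain and ATP synthase. Its RNAs come from mitochondrial DNA, while every one of its proteins is encoded in the nucleus, made in the cytosol and imported. The small subunit holds the messenger RNA and reads the code, and the large subunit joins the amino acids and is anchored at the inner membrane. Heart muscle is rich in mitochondria, and inherited defects in several of these proteins, among them MRPL3 and MRPS22, cause infantile cardiomyopathy in humans.

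The 10 cardiomyocyte markers were bright, with Tnnt2 between 13.51 and 13.62 and Myh6 between 13.16 and 13.28 in the 6 arrays (log2 level). The median over all genes lay between 5.681 and 5.714 in each array. Sickle replicate 3 stood apart, with a score of 43.3 on the first principal component against -15.1 to -2.31 in the others, so values without it are given beside the main results. Control replicate 3 held the atrial genes Sln and Myl7 at 8.08 and 7.75, against at most 3.36 and 4.78 in the other arrays. The atrial markers were split, since Myl4 was also highest there (5.93) but Bmp10 and Nppa were not. Bmp10 was 5.01 there against 5.33 in control replicate 2, and Nppa was 12.74 against 12.97, 13.17 and 13.66 in the sickle arrays. The question was which transcripts of the left ventricle differ when its human beta-globin is the sickle form.

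Mitochondrial ribosome genes had slightly lower levels in the sickle ventricle, over nearly the whole set, and no single gene passed the test. The sickle mean was below the control mean for 67 of 70 members (95.7%), against 51.6% of all genes. The median difference, sickle minus control, was -0.18 on the log2 scale, which is 88.1% of the control level, against -0.01 over all genes. The middle members lay close together, with quartiles at -0.24 and -0.12 against -0.12 and 0.11 over all genes. The whole range ran from -0.65 for Mrpl55 to 0.07 for Mrpl20.

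In limma's test with Benjamini-Hochberg adjustment over all 21506 genes, 0 of 70 members passed an adjusted p of 0.05, where 0.181% of all genes did (0.0139% lower and 0.167% higher in sickle). The lowest adjusted p of a member was 0.375. With a trended, robust variance model 0 members passed either. At an unadjusted p under 0.05 there were 8 members, all lower in sickle (11.4%), against 4.38% of all genes in that direction, and 0 were higher, against 4.30%. Leaving out control replicate 1, 2 or 3 gave 4, 3 or 5 such members (5.71%, 4.29% and 7.14%), where 3.26%, 2.91% and 3.25% of all genes were lower at that p. Leaving out sickle replicate 1, 2 or 3 gave 14, 8 or 4 (20.0%, 11.4% and 5.71%), where 4.62%, 4.57% and 4.37% of all genes were. The 3 sickle values lay below all 3 control values for 21 members (30.0%), against 8.36% of all genes, and above them for 0 members, against 7.61% (16.0% in either direction).

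The size of the difference varied between the sickle mice. Relative to the control mean, the median over members was -0.06, -0.13 and -0.34 in sickle replicates 1, 2 and 3, and 0.04, 0.01 and -0.05 in control replicates 1, 2 and 3. Over all genes the corresponding sickle medians were 0.00, 0.00 and -0.03. The first sickle array was thus barely past the lowest control array, and the other two sickle arrays lay clearly beyond it. In sickle replicate 3, 65 members (92.9%) were below every control array, where 36.4% of all genes were. In sickle replicate 2 this held for 46 members (65.7%, against 27.6% of all genes), and in sickle replicate 1 for 28 members (40.0%, against 27.1%). Below the control mean lay 47, 63 and 68 members in sickle replicates 1, 2 and 3, against 50.5%, 49.5% and 54.4% of all genes. Sickle replicate 3 had the lowest of all 6 values for 54 members. That count was not made over all genes, of which 36.4% were below every control array there.

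**Figure D1:**
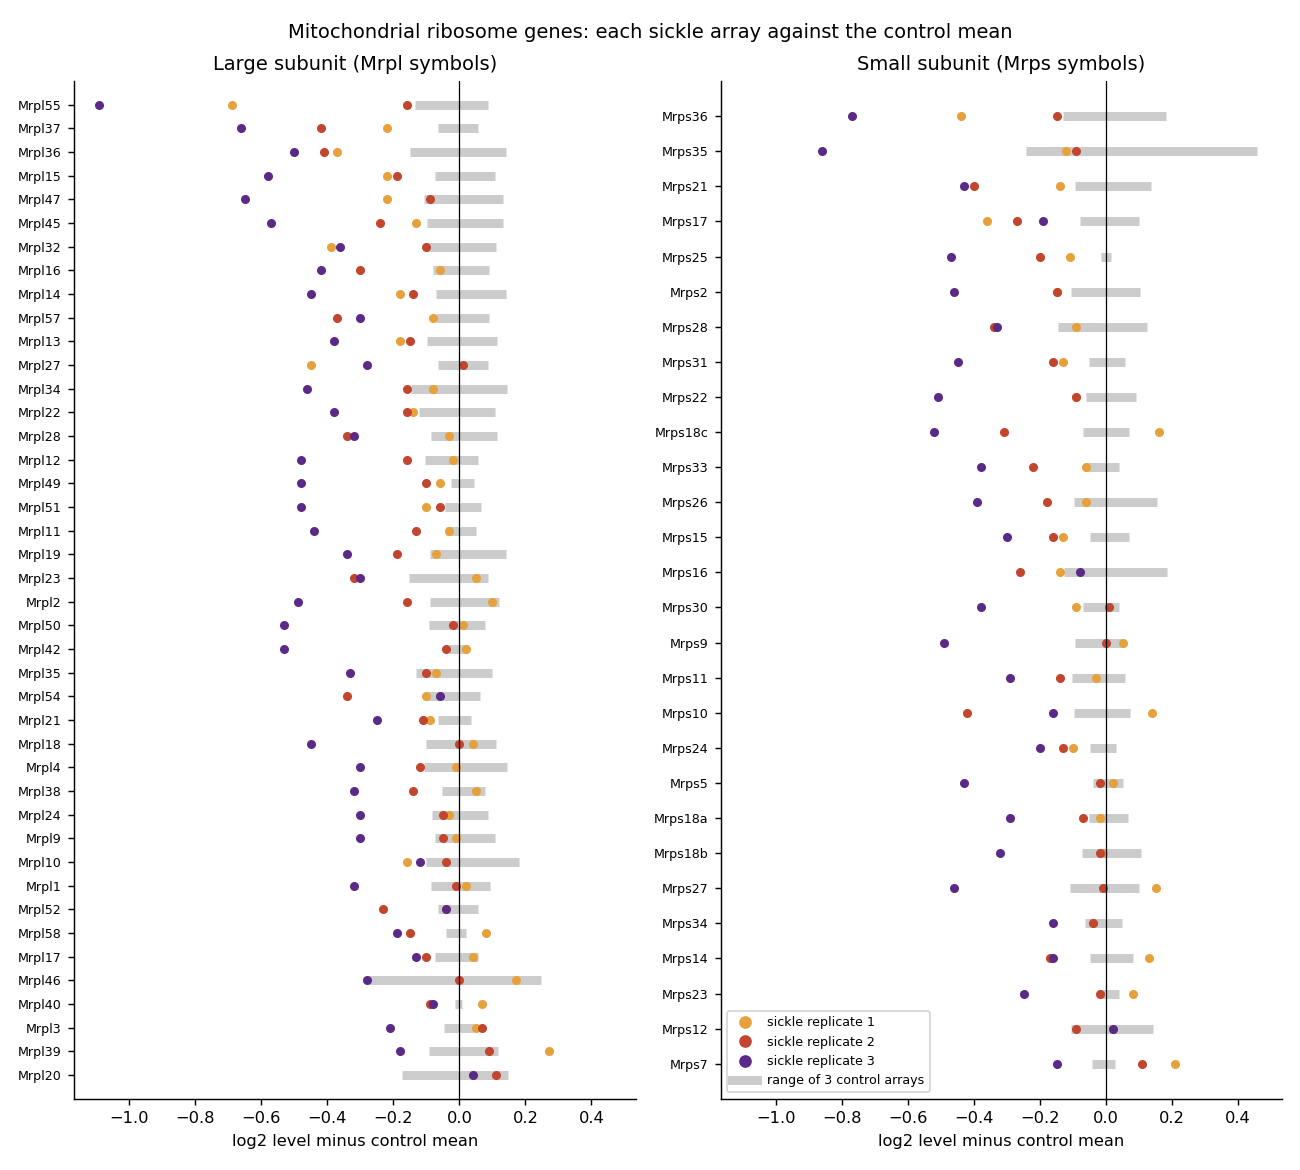
Each row is 1 gene, the points are the 3 sickle arrays as log2 level minus the control mean, and the grey bar spans the 3 control arrays; genes are sorted by mean difference within each subunit. Points of sickle replicate 3 lie to the left of the bar for 65 of 70 genes, and those of replicate 1 for 28.

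Without sickle replicate 3 the median difference was -0.10, which is 93.6% of control, against 0.00 over all genes. Of the 70 members, 59 were still lower (84.3%, against 49.8% of all genes) and 11 higher, with a range from -0.43 to 0.18. At an unadjusted p under 0.05 there were 4 members (5.71%), all lower, against 4.37% of all genes lower and 4.83% higher (9.20% in either direction). By limma's adjusted p 0 members passed, against 0.0976% of all genes (0.0139% lower and 0.0837% higher). Both remaining sickle arrays were below all control arrays for 23 members (32.9%, against 13.4% of all genes). The size of the difference became smaller for 60 members, and 8 turned from lower to higher. Without control replicate 3, the array with high Sln and Myl7, the median was -0.20 and 67 members were lower.

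**Figure D2:**
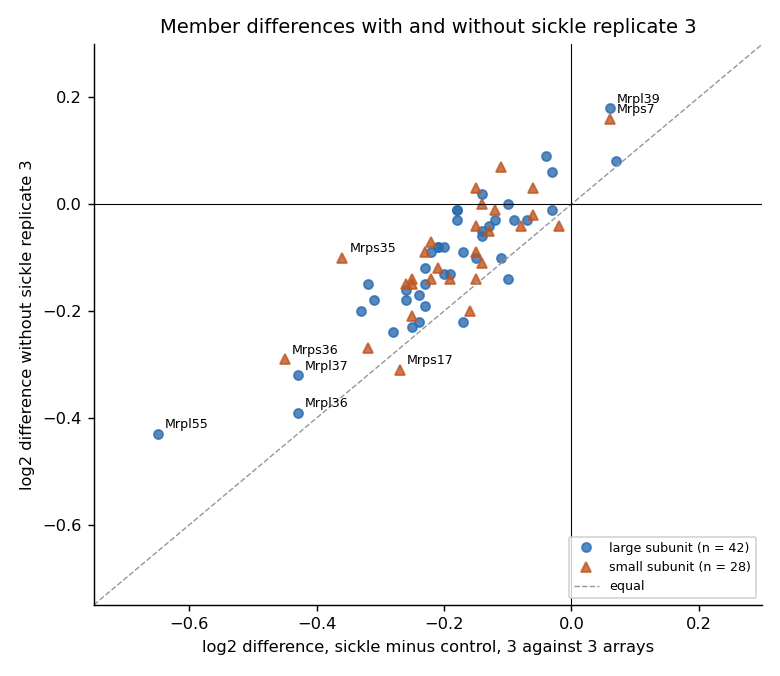
Each point is 1 gene, with its log2 difference over all 6 arrays on the horizontal axis and without sickle replicate 3 on the vertical axis; circles are large and triangles small subunit genes, and the dashed line marks equal values. Most points lie above the line and below 0, while Mrpl36 and Mrps17 stay near the line.

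Among large subunit genes, Mrpl36, the counterpart of a small zinc-binding protein of the bacterial ribosome, had the smallest p of all members. Its level was 6.59, 6.72 and 6.43 in control and 6.20, 6.17 and 6.08 in sickle replicates 1, 2 and 3. The sickle arrays lay close together and below every control array. The difference was -0.43 ± 0.11 (SE, n = 3 per group, limma unadjusted p = 0.00417, adjusted p = 0.375), and -0.39 without sickle replicate 3.

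Mrpl37, a protein found in mitochondrial but not bacterial ribosomes, had 8.64, 8.69 and 8.57 in control and 8.42, 8.22 and 7.97 in sickle. The groups did not overlap and the sickle values were spread, with replicate 3 lowest. The difference was -0.43 ± 0.13 (limma adjusted p = 0.446), and -0.32 without replicate 3. Mrpl55 had the largest difference of the 70, with 9.54, 9.58 and 9.36 in control and 8.80, 9.33 and 8.41 in sickle. Sickle replicate 2 lay just below the lowest control array, and the other sickle arrays were far below it. The difference was -0.65 ± 0.22 (limma adjusted p = 0.498), or 63.8% of control, with a 95% interval from -1.15 to -0.14. It was -0.43 without sickle replicate 3.

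Mrpl15, counterpart of bacterial L15, had 8.31, 8.45 and 8.27 in control and 8.13, 8.16 and 7.77 in sickle, again with no overlap (difference -0.33 ± 0.13, limma adjusted p = 0.564; -0.20 without sickle replicate 3). Mrpl32 is a protein that the inner membrane protease m-AAA trims before it joins the large subunit. Its values were 7.56, 7.35 and 7.44 in control and 7.06, 7.36 and 7.09 in sickle, so that 1 sickle array reached into the control range (difference -0.28 ± 0.12, limma adjusted p = 0.565), and its difference without sickle replicate 3 was -0.24. Mrpl45, which anchors the ribosome to the inner membrane near the exit of the new protein chain, differed by -0.31 ± 0.14 (limma adjusted p = 0.580), from 8.82, 8.65 and 8.59 to 8.56, 8.45 and 8.11. For Mrpl45 the first sickle array was only just under the lowest control array, and the difference without sickle replicate 3 was -0.18.

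Mrpl12, part of the stalk that recruits translation factors, had 9.05, 9.04 and 8.89 in control and 8.97, 8.84 and 8.51 in sickle, and the groups overlapped. Its difference was -0.22 ± 0.13, and -0.09 without sickle replicate 3. A second, dimmer row for Mrpl12 differed by -0.37. For Mrps16, the other gene with 2 rows, the differences were -0.16 and -0.15, but the rows differed by array. Sickle replicates 1, 2 and 3 had 7.43, 7.32 and 7.49 in the brighter row and 7.11, 6.96 and 6.56 in the dimmer row. Sickle replicate 3 was thus the highest sickle array in the brighter row and the lowest in the dimmer row.

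The groups overlapped for Mrpl3, Mrpl39, Mrpl46, Mrpl20 and Mrpl27. Mrpl3, the counterpart of bacterial L3 next to the catalytic centre, had 8.78, 8.74 and 8.69 in control and 8.79, 8.81 and 8.53 in sickle. Only sickle replicate 3 was below the control range, and the difference of -0.03 (95% interval -0.28 to 0.22) became 0.06 without it. Mrpl39, a protein related to threonyl-tRNA synthetase, differed by 0.06 ± 0.13, with 9.88, 9.74 and 9.67 in control and 10.03, 9.85 and 9.58 in sickle. Its sickle arrays lay on both sides of the control range, and without replicate 3 the difference was 0.18. Mrpl46 differed by -0.04 ± 0.17, and by 0.09 without sickle replicate 3; its control values alone spanned 6.50 to 7.02. Mrpl20 differed by 0.07 ± 0.11, with a sickle range from 6.02 to 6.10 inside the control range from 5.81 to 6.13. Mrpl27, whose signal of 4.98 over the 6 arrays was under the array median, differed by -0.24 ± 0.13.

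**Figure D3:**
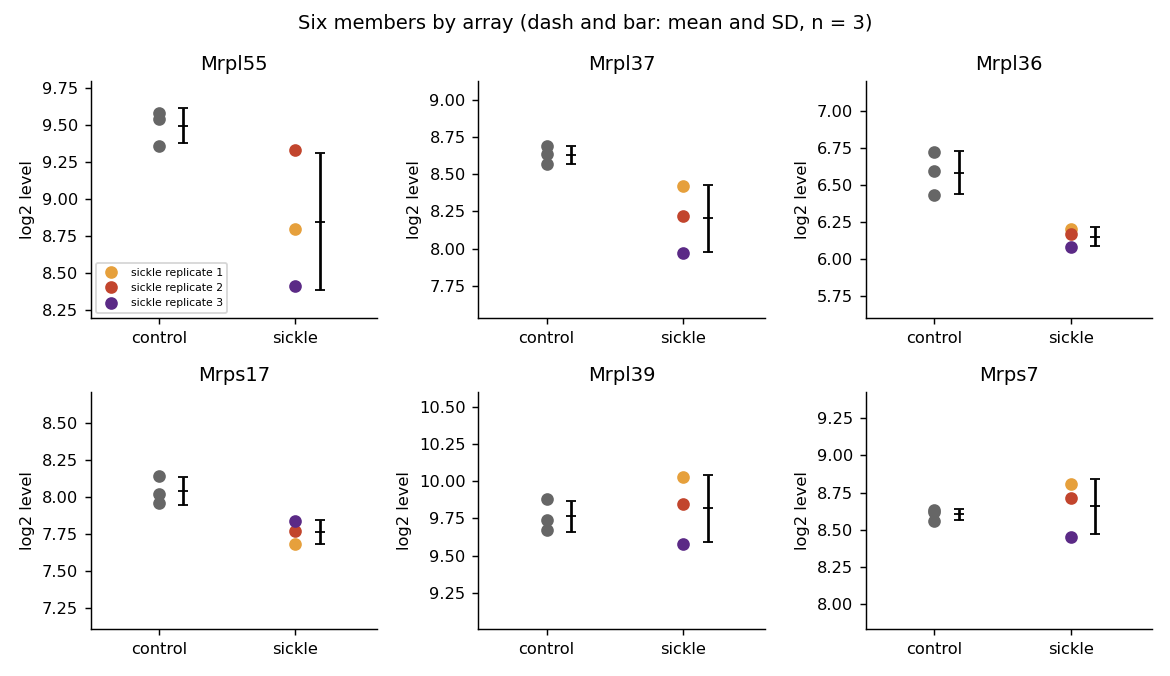
Log2 level of 6 members in each array, with control arrays in grey and sickle arrays coloured by replicate; the dash and bar are the mean and SD of 3 arrays, and every panel spans the same range of 1.6 log2 units. Mrpl55, Mrpl37, Mrpl36 and Mrps17 show no overlap between groups, while in Mrpl39 and Mrps7 sickle replicate 3 is low and the other sickle arrays are not.

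In the small subunit, Mrps17, counterpart of bacterial S17, was 1 of 5 members whose difference was more negative without sickle replicate 3. It had 7.96, 8.14 and 8.02 in control and 7.68, 7.77 and 7.84 in sickle, with replicate 3 the highest of the sickle arrays and still below every control array. The difference was -0.27 ± 0.10 (limma adjusted p = 0.522), and -0.31 without replicate 3. Mrps21, counterpart of bacterial S21, had 8.03, 8.08 and 8.26 in control and 7.98, 7.72 and 7.69 in sickle. The first sickle array was just below the control range and the others well below it (difference -0.32 ± 0.12, limma adjusted p = 0.534), and without sickle replicate 3 the difference was -0.27.

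Mrps36 carries a small subunit symbol but is known as Kgd4, a subunit of the 2-oxoglutarate dehydrogenase complex. It had 6.07, 5.84 and 5.76 in control and 5.45, 5.74 and 5.12 in sickle, where replicate 2 came close to the lowest control array. The difference was -0.45 ± 0.17 (limma adjusted p = 0.542), and -0.29 without sickle replicate 3. Mrps22, a mitochondria-specific protein, had 7.75, 7.60 and 7.63 in control and 7.57, 7.57 and 7.15 in sickle. The first 2 sickle arrays were just under the control range, and the difference of -0.23 ± 0.13 was -0.09 without sickle replicate 3. Mrps15, counterpart of bacterial S15, had no overlap between groups, with a difference of -0.19 ± 0.09, and -0.14 without sickle replicate 3.

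Mrps12, which sits at the decoding centre where the codon is read, differed by -0.02 ± 0.10 (95% interval -0.26 to 0.22). Mrps7, which binds the head of the small subunit RNA, had 8.63, 8.62 and 8.56 in control and 8.81, 8.71 and 8.45 in sickle, a difference of 0.06 ± 0.11. Its first 2 sickle arrays were above and the third below the control range, and without sickle replicate 3 the difference was 0.16 (limma adjusted p = 0.647). Mrps23, another mitochondria-specific protein, differed by -0.06 ± 0.11, and by 0.03 without sickle replicate 3. Mrps14, with a signal of 4.99 under the array median, differed by -0.06 ± 0.11.

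Mammals have 3 genes related to bacterial S18, which take different places in the ribosome. Mrps18a, found in the large subunit, differed by -0.13 ± 0.11, Mrps18b by -0.12 ± 0.12 and Mrps18c by -0.22 ± 0.17, none past the test. Without sickle replicate 3 the differences were -0.05, -0.01 and -0.07. Mrps18c had the lowest signal of all members, 4.55, which was under the array median. Mrps30, also a large subunit protein despite its symbol, had 8.11, 8.12 and 8.01 in control and 7.99, 8.09 and 7.70 in sickle (difference -0.15 ± 0.12, and -0.04 without sickle replicate 3).

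The median difference was -0.19 for the 42 large and -0.16 for the 28 small subunit genes, with 40 and 27 of them lower. In the sickle arrays the large minus small median was 0.01, 0.02 and 0.02, and in the control arrays 0.03, -0.01 and -0.01, so the contrast within sickle arrays was no larger than within control arrays. Without sickle replicate 3 the medians were -0.09 and -0.10. With Mrps30 and Mrps18a counted as large and Mrps36 as neither, the medians were -0.18 and -0.16. Groups that did not overlap were found for 12 large (28.6%) and 9 small subunit genes (32.1%), all lower, against 8.36% of all genes in that direction. The 45 members with a bacterial counterpart and the 25 without one, Mrps36 among them, both had a median of -0.18. Without sickle replicate 3 these medians were -0.10 and -0.08. No test was run on these contrasts, since they are scores over members.

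The spread between mice was wider in sickle for most members. Sickle replicate 3, which stood apart over all genes, was the lowest sickle array for 55 of the 70. Neither this count nor the SD was computed over all genes, so the wider spread cannot be called particular to the members. The median SD of a member was 0.09 among the 3 control arrays and 0.18 among the 3 sickle arrays, and the sickle SD was the larger for 63 of 70 members. The largest control SD was 0.39, that of Mrps35, whose levels were 8.86, 8.16 and 8.19 in control and 8.28, 8.31 and 7.54 in sickle (chosen after its values were seen). The standard error of a member's difference lay between 0.09 and 0.26.

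Most genes that work with the ribosome had lower sickle values too, and by limma's adjusted p 0 passed in the lists of mitochondrial and cytosolic ribosome genes described here. Of 3 ribosome proteins with other symbols, Gadd45gip1, a large subunit protein, had 6.78, 6.91 and 6.65 in control and 5.83, 6.70 and 5.80 in sickle. The second sickle array was within the control range and the others were far below it (difference -0.67 ± 0.24, limma adjusted p = 0.519), and without sickle replicate 3 the difference was -0.51. Dap3, a GTP-binding protein of the small subunit, differed by -0.13 ± 0.11, and by -0.05 without sickle replicate 3. Ptcd3 differed by 0.07 ± 0.16, and by 0.25 without sickle replicate 3.

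Of 22 ribosome assembly factors, 21 were lower, with a median of -0.13. Mrm1, which methylates the large ribosomal RNA, had 7.06, 6.96 and 7.20 in control and 6.57, 6.74 and 6.46 in sickle, with no overlap (difference -0.48 ± 0.12, limma adjusted p = 0.354). Tfb1m, which methylates the small ribosomal RNA, differed by -0.47 ± 0.16 (limma adjusted p = 0.503). Of 14 translation factors, 13 were lower (median -0.18), with the release factor Mtrf1l at -0.30 ± 0.11 and Mtfmt, which formylates the initiator tRNA, at -0.23 ± 0.10. Of 19 genes that charge mitochondrial tRNAs, 15 were lower (median -0.16), with Ears2 at -0.35 ± 0.11 and Gatc at -0.30 ± 0.12.

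Of 11 genes of mitochondrial DNA transcription and replication, 9 were lower (median -0.23), among them Tefm, the elongation factor of the mitochondrial RNA polymerase (-0.38 ± 0.15), and Ssbp1, the single-stranded DNA binding protein (-0.33 ± 0.12). Of 13 nuclear regulators of mitochondrial genes, 9 were lower (median -0.14). Ppargc1a, the coactivator PGC-1 alpha, had 10.47, 10.35 and 10.57 in control and 10.34, 10.29 and 9.84 in sickle (-0.31 ± 0.15, and -0.15 without sickle replicate 3), and Esrra, a nuclear receptor that works with it, differed by -0.21 ± 0.10. Without sickle replicate 3 the medians of these 5 lists were -0.08, -0.04, -0.05, -0.13 and -0.08, in the order given from assembly to regulators.

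The respiratory chain and ATP synthase, whose mitochondrially encoded subunits this ribosome makes, had a median of -0.17 over 75 nuclear subunit genes, with 72 lower. Sickle replicates 1, 2 and 3 had medians of -0.06, -0.14 and -0.34 relative to the control mean, next to -0.06, -0.13 and -0.34 for the ribosome. The groups did not overlap for 34 of them (45.3%), all lower, against 8.36% of all genes lower and 7.61% higher. Genes of the cytosolic ribosome had a median of 0.02, with 20 of 41 lower, and 0.01, -0.10 and 0.04 in the 3 sickle arrays. Import and quality control genes had a median of -0.19 (13 of 14 lower), and abundant mitochondrial enzymes, carriers and shape proteins such as Cs, Vdac1 and Mfn2 had -0.08 (11 of 13 lower). That last list had medians of 0.00, -0.01 and -0.25 in sickle replicates 1, 2 and 3. Its median difference was 0.00 without sickle replicate 3, with 7 of 13 lower. The respiratory chain then had -0.10 (66 of 75 lower), import and quality control -0.06 (11 of 14 lower) and the cytosolic ribosome -0.05, with 25 of 41 lower, so that the direction of the cytosolic list turned. No test compared these lists with the ribosome.

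**Figure D4:**
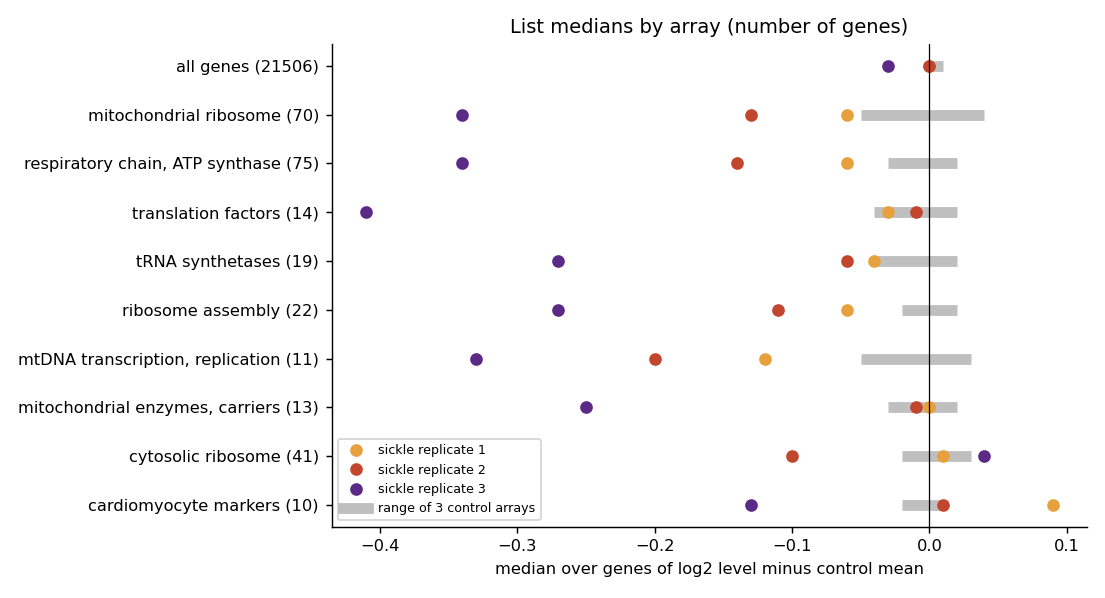
Each point is the median over the genes of a list of log2 level minus control mean in 1 sickle array, and the grey bar spans the 3 control arrays; the number of genes is in brackets. The mitochondrial ribosome and the respiratory chain lie at -0.34 in sickle replicate 3, the cytosolic ribosome at 0.04.

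Fibroblast and macrophage markers stood highest in sickle replicate 3, and red-cell and lymphocyte markers were higher in all 3 sickle arrays. Fibroblast markers were higher in sickle for 9 of 10 genes. Their summed linear level lay between 10400 and 11500 in the control arrays and was 11000, 10700 and 26300 in sickle replicates 1, 2 and 3. Macrophage markers were higher for 9 of 10 genes, with sums from 2200 to 2500 in control and 2400, 2760 and 5840 in sickle. Of the fibroblast and macrophage markers, 6 of 10 and 7 of 10 were higher without sickle replicate 3. The cardiomyocyte sum was between 71600 and 72700 in control and 74400, 73000 and 66800 in sickle, with 6 of 10 markers lower. Of 12 listed red-cell markers 9 were measured, and all 9 were higher. Of these 8 were past limma's adjusted p, where 0.167% of all genes were higher at that p. Their sums were from 1670 to 1880 in control and 4540, 6750 and 5850 in sickle. All 9 were again higher than in control without sickle replicate 3, and 3 passed, against 0.0837% of all genes. Of 8 listed lymphocyte markers 7 were measured, and all 7 were higher. Of these 1 was past the adjusted p (0 without sickle replicate 3), against the same 0.167% of all genes. The lymphocyte sums were from 194 to 217 in control and 331, 294 and 284 in sickle. No marker of these lists was listed at 0, and their part in the ribosome result was not tested. In whole tissue, fewer cells of a type and less RNA per cell cannot be told apart.

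Promoter sequences were looked up because the members had differences of like size. RefSeq's table (GRCm38.p6) held the window from 250 bases before to 50 after the start for 61 of 70 members, in 64 windows. Windows were searched on both strands for letters linked to known regulators of mitochondrial genes. The motif of NRF1 (nuclear respiratory factor 1) was in 17.2% of member windows and in 4.6% of all 32851 windows (6.38% of those of coding genes). The ETS letters CCGGAAG, bound by GABP, were in 34.4% against 8.86% (11.6%), and the YY1 letters AAGATGGCG in 12.5% against 1.4% (1.83%). The SP1 letters GGGCGG were in 53.1% against 35.7% (46.2%). Member windows were rich in CG pairs, with a median of 21 against 7 in all windows and 13 in those of coding genes.

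The stretches below are the 150 bases before the start, 5′ to 3′, with matches to the first 3 of these motifs in capitals. Mrpl36, Mrpl32, Mrpl45 and Mrps22 were low in sickle and show each kind of match, and Mrpl39, which was not lower, holds the NRF1 motif too. Mrpl55, Mrps36, Mrpl37 and Mrps17 were also low in sickle and had no such match in this stretch, so the stretches shown are examples of matches only. Mrpl37 does hold YY1 letters after its start, within the searched window but outside the 150 bases shown.
Mrpl36, chr13:73330859-73331008, plus strand: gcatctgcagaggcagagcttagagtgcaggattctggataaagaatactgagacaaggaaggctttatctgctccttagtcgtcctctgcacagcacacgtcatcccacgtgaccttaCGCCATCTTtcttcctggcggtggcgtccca
Mrpl32, chr13:14613038-14613187, minus strand: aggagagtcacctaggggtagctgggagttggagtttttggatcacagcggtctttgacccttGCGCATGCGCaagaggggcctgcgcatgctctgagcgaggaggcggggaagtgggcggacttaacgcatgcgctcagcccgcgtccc
Mrpl45, chr11:97315566-97315715, plus strand: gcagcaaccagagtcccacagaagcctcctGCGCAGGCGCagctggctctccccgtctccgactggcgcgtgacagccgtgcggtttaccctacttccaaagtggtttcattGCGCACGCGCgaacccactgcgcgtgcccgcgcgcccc
Mrps22, chr9:98601680-98601829, minus strand: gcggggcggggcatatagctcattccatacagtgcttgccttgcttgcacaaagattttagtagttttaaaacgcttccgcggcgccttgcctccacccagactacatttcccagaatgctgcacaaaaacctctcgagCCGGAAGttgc
Mrpl39, chr16:84735245-84735394, minus strand: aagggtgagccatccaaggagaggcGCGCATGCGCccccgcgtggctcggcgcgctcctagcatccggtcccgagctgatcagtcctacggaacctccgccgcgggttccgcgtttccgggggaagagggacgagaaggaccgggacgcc

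The match in Mrpl36 is the YY1 letters on the other strand, those in Mrpl32, Mrpl45 and Mrpl39 are NRF1 letters, and that in Mrps22 is the ETS letters. The median difference was -0.22 for the 11 members with NRF1 letters and -0.17 for the other 50, -0.16 for the 22 with ETS letters and -0.18 for the other 39, and -0.16 for the 8 with YY1 letters and -0.19 for the other 53. A match describes the letters of a window, not a site. Another coding gene overlapped 24 of the 64 windows (37.5%), against 12.4% of windows of all coding genes. The windows of Mrpl46 and Mrps11 overlap, and that of Mrps12 overlaps Sars2, the mitochondrial seryl-tRNA synthetase. The median difference was -0.18 both for the 22 members with such a neighbour and for the other 39.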

How the data were processed

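Values on the log2 scale were deposited by the authors after RMA, per the submitters' processing notes, which name no version or settings. RMA in general corrects background, normalises by quantiles and summarises probes. That the values are log2 was inferred from their range. Build and scan batch: not given in the sources used here. RMA equalises the arrays' distributions, so a shift of most genes would not be seen. Of 25293 deposited rows, 22030 had 1 gene symbol in the array annotation, 685 several and 2578 none. Arrays give no read depth, and their number limits the precision. Array signal depends on the probes as well as on the RNA, so ranks by signal and sums over markers are descriptions of signal, not of transcript amounts.

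The 22030 rows gave 21506 genes, taking the row with the highest mean over 6 arrays. Dim genes were kept. A two-sided test with limma 3.58.1 (R 4.3.3; lmFit, eBayes, group as the only term; residual df 4, prior df 3.61) was fitted to all genes, with Benjamini-Hochberg adjustment at 0.05. SE and intervals are moderated. The procedure was tested on simulated data with independent noise for each gene and the same spread in every array. Those data held no outlying array and no genes moving together, so the test does not cover these features.

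The members and lists were chosen with earlier results of these data known. Named members are the 8 with the smallest p in each direction (3 were higher), the 3 with the highest and 3 with the lowest mean signal, the 3 highest and 3 lowest without sickle replicate 3, and 10 measured genes of set interest. The naming rule adds 2 per pathway list, and all 3 ribosome genes with other symbols. Alternatives were a trended variance, filters on dim genes (mean of at least 5 or 6), median centring, quantile normalisation again, weights per array, a replicate block, leaving out each array, other uses of rows, and subunits by structure. Figures used matplotlib 3.10.9. Promoters came from RefSeq (GRCm38.p6).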

Additional observations from a re-analysis of the deposited data

How the results depend on the processing

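The median member difference stayed lower in sickle in every alternative run, between -0.24 (without sickle replicate 1) and -0.10 (without sickle replicate 3). The number of members past the adjustment was 0 in each alternative. The number at an unadjusted p under 0.05 was 8, all of them lower (11.4%, against 4.38% of all genes). It became 17 with a trended, robust variance (24.3% against 4.74%) and 16 with median centring (22.9% against 5.78%). Among genes with a mean of at least 6 it was 13 (19.7% against 6.81%). With 1 array left out it ranged from 3 to 14 (4.29% to 20.0%), where 2.91% to 4.62% of all genes were lower at that p. Genes called in all were 39, and 13, 5 and 4 without control replicates 1, 2 and 3 and 36, 21 and 21 without the sickle ones in the same order. The large minus small subunit median, -0.03, was 0.00 with array weights and between -0.03 and 0.01 with 1 array left out. The replicate number as a block gave 12 genes and 0 members called. With it 8 members had an unadjusted p under 0.05, all lower (11.4%, against 4.08% of all genes). Deviations of same-numbered arrays correlated by 0.11, -0.046 and 0.054, so the numbers were not taken to pair the mice. Of the named members, those near 0 turned direction: Mrpl3 (0.03) and Mrpl46 (0.06) with array weights. Without sickle replicate 3, Mrpl3 had 0.06, Mrpl46 0.09 and Mrps23 0.03. Without sickle replicate 1, Mrpl39 had -0.05 and Mrps7 -0.02, and without sickle replicate 2, Mrps12 had 0.02. Without control replicate 1, Mrpl46 had 0.09, and without control replicate 2, Mrpl20 had -0.02 and Mrps12 0.06. With 1 array left out the ranges were -0.02 to 0.14 for Mrpl20, -0.08 to 0.06 for Mrpl3, -0.05 to 0.18 for Mrpl39, -0.17 to 0.09 for Mrpl46, -0.07 to 0.06 for Mrps12, -0.13 to 0.03 for Mrps23 and -0.02 to 0.16 for Mrps7. The cause of these changes was not tested.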
